A study of Mus musculus with 17 samples.

Results

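The 9 genes described here encode class 4 semaphorins (Sema4a, Sema4b, Sema4c, Sema4d), plexins (Plxnb2, Plxnc1, Plxnd1) and neuropilins (Nrp1, Nrp2). They are 9 of the 40548 genes counted in sorted macrophages of mouse liver and adipose tissue, and all 9 were among the 15285 genes that passed the filter on low counts. The 9 were selected on measured values of these same libraries: their levels and group differences had been seen before the list was drawn up, and which values weighed most was not recorded. Their differences between groups are therefore given as a description. The adjusted p beside a difference comes from a fit over all 15285 genes and only states how large the difference was against the spread between libraries. The family holds 31 genes in all, and the 22 others are described after the 9.

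Semaphorins are secreted or membrane-bound ligands that were first known as cues for growing axons. Plexins are their transmembrane receptors, and the inner part of a plexin acts on small GTPases of the Ras and Rap type and so on the cytoskeleton and on adhesion. Neuropilins have a short inner part and work as co-receptors, with plexins for the secreted class 3 semaphorins and with vascular endothelial growth factor (VEGF) receptors for VEGF. Macrophages, dendritic cells and lymphocytes carry class 4 semaphorins on their surface, and the endothelium of liver sinusoids is rich in neuropilins and plexins.

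The cells came from Cx3Cr1-GFP/WT mice of the C57BL/6 strain, which express green fluorescent protein from 1 allele of the chemokine receptor Cx3cr1, so that every group, controls included, is heterozygous at this locus. STD KC (3 libraries, named std1 to std3) were liver cells with high F4/80 and with TIM4 on their surface, as resident Kupffer cells have, from mice on standard chow. HFD KC (5 libraries, hf1, hf2, hf3, hfd1 and hfd2) were TIM4-positive Kupffer cells from mice that had eaten food high in fat and sucrose for 16 weeks. Of these, hf1, hf2 and hf3 carry the sort label CD68, while hfd1, hfd2 and all STD KC libraries carry frac_neg. The labels do not explain this difference. Cx3cr1pos HFD (4 libraries, hf1, hf2, hf3 and hfd2) were liver macrophages positive for the reporter, and ATM HFD (5 libraries, with the names of HFD KC) were macrophages of adipose tissue, gated by F4/80 and CD64, both from mice on that diet. All Cx3cr1pos HFD libraries carry the sort label frac_pos and all ATM HFD libraries frac_neg. The labels do not say whether libraries of a group came from separate mice, so the p-values measure the spread between libraries, which may be technical. In sorted bulk RNA, fewer cells of a type and less RNA per cell cannot be told apart.

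Libraries summed to 25644835 to 38207943 counts. Levels below are CPM, counts scaled to a common depth by the TMM-scaled library totals, differences are log2 fold changes ± SE from edgeR's quasi-likelihood fit, and a gene is called at an adjusted p under 0.05. Timd4, which encodes TIM4, stood at 1381, 1045, 1179, 1655 and 402 CPM in HFD KC hf1, hf2, hf3, hfd1 and hfd2, against 1233 to 1564 in STD KC. It did not exceed 7.86 CPM in ATM HFD or 42.9 CPM in Cx3cr1pos HFD. The library HFD KC hfd2 was therefore the lowest of its sort, and results that rest on it are given with and without it. Cx3cr1 reached 303 to 454 CPM in Cx3cr1pos HFD and at most 29.1 CPM in ATM HFD, 15.2 in HFD KC and 4.10 in STD KC. The macrophage genes Adgre1 (F4/80), Fcgr1 (CD64) and Cd68 were read in every library, at no less than 2074, 132 and 2105 CPM. Summed over 12 genes of liver sinusoidal endothelial cells, the libraries held 6449 to 8653 CPM in STD KC, 1790.0 to 6621 in HFD KC, only 72.8 to 130.0 in ATM HFD and 1244 to 2182 in Cx3cr1pos HFD, so endothelial RNA was present in the liver sorts.

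The promoter windows of Sema4d, the member with the largest difference between liver groups, and of the neuropilins Nrp1 and Nrp2, which share a higher level in adipose tissue, show the DNA around the annotated starts. RefSeq (GRCm38.p6) lists 17 such windows for the 9 genes, each 300 bases long with 250 before the start and 50 after it, and 3 of them belong to Sema4d. They are printed 5′ to 3′ on the gene's strand, with matches to 4 short motifs in capitals. The motifs were searched on both strands: the PU.1-type motif GAGGAAGT, the GC box GGGCGG, the AP-1 motif TGANTCA and the E-box CACGTG, and no base of a printed window lay under more than 1 motif type.
Sema4d, minus strand of chr13:51748761-51749060: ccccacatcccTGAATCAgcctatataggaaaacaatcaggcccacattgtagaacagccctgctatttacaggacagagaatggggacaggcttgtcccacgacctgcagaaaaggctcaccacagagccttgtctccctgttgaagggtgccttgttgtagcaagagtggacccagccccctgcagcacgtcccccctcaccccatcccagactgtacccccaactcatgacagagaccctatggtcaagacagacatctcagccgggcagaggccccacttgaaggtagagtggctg
Sema4d, minus strand of chr13:51756634-51756933: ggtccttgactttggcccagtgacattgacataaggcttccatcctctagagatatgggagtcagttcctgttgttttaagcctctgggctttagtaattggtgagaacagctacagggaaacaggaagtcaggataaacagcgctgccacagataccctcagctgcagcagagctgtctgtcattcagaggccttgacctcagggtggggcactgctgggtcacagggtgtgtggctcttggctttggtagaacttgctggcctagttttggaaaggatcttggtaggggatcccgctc
Sema4d, minus strand of chr13:51739397-51739696: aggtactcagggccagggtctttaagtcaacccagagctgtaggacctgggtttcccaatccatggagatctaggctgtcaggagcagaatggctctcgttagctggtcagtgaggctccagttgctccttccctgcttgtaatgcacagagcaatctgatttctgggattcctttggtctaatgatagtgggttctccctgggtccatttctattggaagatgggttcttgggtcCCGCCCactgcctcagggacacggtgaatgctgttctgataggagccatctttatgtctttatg
Nrp1, plus strand of chr8:128358823-128359122: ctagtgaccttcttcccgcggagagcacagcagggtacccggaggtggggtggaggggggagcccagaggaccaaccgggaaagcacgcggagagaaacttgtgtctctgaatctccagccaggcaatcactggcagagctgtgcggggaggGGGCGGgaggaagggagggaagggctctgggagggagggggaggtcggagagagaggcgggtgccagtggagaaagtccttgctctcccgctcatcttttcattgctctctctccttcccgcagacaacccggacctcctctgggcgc
Nrp2, plus strand of chr1:62703067-62703366: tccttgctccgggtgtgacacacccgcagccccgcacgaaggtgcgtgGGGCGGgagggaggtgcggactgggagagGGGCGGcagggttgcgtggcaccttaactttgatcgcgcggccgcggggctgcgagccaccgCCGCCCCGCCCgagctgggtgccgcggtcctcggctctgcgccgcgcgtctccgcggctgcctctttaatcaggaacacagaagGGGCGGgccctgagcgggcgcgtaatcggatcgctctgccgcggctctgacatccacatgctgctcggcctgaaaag
The first Sema4d window holds 1 AP-1 match, the second none of the 4 motifs and the third 1 GC box. Nrp1 has 1 GC box match and Nrp2 has 5. Over the 9 genes, 14 of the 17 windows and at least 1 window of each gene held a GC box, as did 35.7% of the 32851 windows of that length in the table. AP-1 was matched in 2 of the 17 (7.81% of all windows), the E-box in 1 (7.15%) and the PU.1-type motif in 0 (3.20%). A match is a string of letters and does not show that a factor binds there.

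Among the ligands Sema4d (ENSMUSG00000021451), also known as CD100, had the widest range. It is a membrane semaphorin that proteases release from the cell surface, and it binds plexin-B1, plexin-B2 and, on immune cells, CD72. In STD KC std1, std2 and std3 its level was 4.88, 2.45 and 1.91 CPM. In HFD KC hf1, hf2, hf3, hfd1 and hfd2 it was 5.58, 16.8, 19.7, 24.4 and 74.3 CPM. In Cx3cr1pos HFD hf1, hf2, hf3 and hfd2 it was 248, 237, 351 and 309 CPM, and in ATM HFD hf1, hf2, hf3, hfd1 and hfd2 it was 74.3, 159.6, 157, 177 and 169 CPM. The levels went up from STD KC through HFD KC and ATM HFD to Cx3cr1pos HFD. The ranges did not overlap, but HFD KC hf1 lay close above STD KC std1, and HFD KC hfd2 (74.26 CPM) and ATM HFD hf1 (74.33 CPM) met at the same level within counting error.

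Sema4d was higher in HFD KC than in STD KC (3.19 ± 0.64, adjusted p = 0.00995), and higher in Cx3cr1pos HFD than in HFD KC (3.35 ± 0.51, adjusted p = 0.000296). ATM HFD also exceeded HFD KC (2.39 ± 0.48, adjusted p = 0.000566), while ATM HFD and Cx3cr1pos HFD, although their libraries did not overlap, did not pass the test (-0.96 ± 0.48, adjusted p = 0.128; 0.00718 when those groups alone were fitted). Without HFD KC hfd2 the differences from HFD KC became 4.09 for Cx3cr1pos HFD and 3.17 for ATM HFD. The diet difference was 2.43 on the log2 scale without HFD KC hfd2 (adjusted p = 0.00817), and its call ended without STD KC std2 (adjusted p = 0.087), without std3 (0.083) and with only the groups compared (0.0751). With only the HFD KC libraries labelled frac_neg, the sort label that STD KC carries too, it was 4.00 (adjusted p = 0.000394), and with only those labelled CD68 it was 2.18 (adjusted p = 0.0185). Since the std names occur in STD KC alone, name and diet cannot be told apart.

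Markers of monocyte-derived cells, of T and NK cells and of B and plasma cells were lowest in STD KC, as Sema4d was. Within groups they did not always rank the libraries as Sema4d did. The summed level of 7 monocyte-derived cell markers was 22.5, 24.03 and 18.8 CPM in the STD KC libraries and 39.8, 83.5, 107, 100.3 and 157 CPM in the HFD KC libraries, in the order above. It was 1462, 1066, 1394 and 837 CPM in those of Cx3cr1pos HFD and 559, 584, 616, 424 and 412 CPM in those of ATM HFD. Among the 7 is Cx3cr1, whose reporter defined the Cx3cr1pos HFD sort. It stood at 302.8 to 453.5 CPM there, so part of the height of the sum in that group was fixed by the sort. HFD KC hfd2, the highest of its group in Sema4d, was also the highest in this sum and in the integrin gene Itgax, at 102 CPM against at most 47.9 in the other HFD KC libraries. ATM HFD hf1, the lowest ATM library in Sema4d, was in the middle of its group in this sum, but was the lowest in the T and NK cell and in the B and plasma cell markers. The 11 T and NK cell markers, none at 0 in any group, summed to 8.65 to 11.2 CPM in STD KC, 15.2, 21.7, 85.97, 20.4 and 39.6 CPM in the HFD KC libraries, 12.6, 31.3, 30.2, 30.3 and 39.95 CPM in the ATM HFD libraries and 30.1 to 80.4 CPM in Cx3cr1pos HFD. The 7 B and plasma cell markers, none at 0 in any group and led by Ighm, summed to 64.4 to 199 CPM in STD KC, 339 to 758 in HFD KC, 355, 987, 659, 1231 and 1277 in the ATM HFD libraries and 686 to 1880.0 in Cx3cr1pos HFD. In HFD KC against STD KC, 2 of these 7 (Ms4a1 and Ighm) were called higher and 0 lower, beside 2.27% of all genes higher. So were 4 of the 7 monocyte-derived and 3 of the 11 T and NK cell markers, with 0 lower. HFD KC hfd2, highest in Sema4d, was the lowest HFD KC library in the B and plasma cell sum, at 339 CPM. The part of these cells in the Sema4d difference was not tested.

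**Figure D1:**
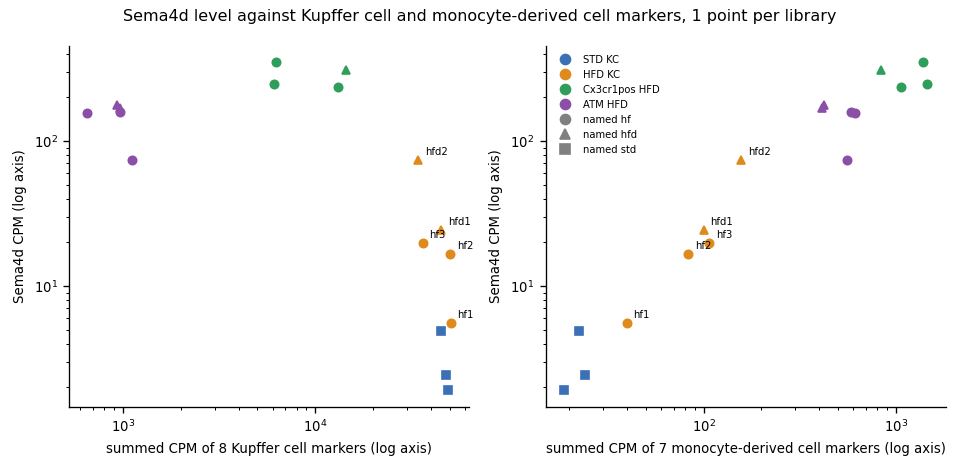
Sema4d level (CPM, log axis) against the summed CPM of 8 Kupffer cell markers (left) and of 7 monocyte-derived cell markers (right), both on log axes, with 1 point per library, colours for groups and shapes for the start of the library name. The 4 Cx3cr1pos HFD libraries lie highest, at 237 to 351 CPM, and HFD KC hfd2 (74.3 CPM) lies nearest to them among the HFD KC libraries. The monocyte-derived cell markers include Cx3cr1, whose reporter defined the Cx3cr1pos HFD sort.

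Sema4a (ENSMUSG00000028064), a semaphorin of dendritic cells and macrophages that costimulates T cells and binds plexin-D1 and plexins of the B type, was lower in both Kupffer cell groups than in the other macrophages. STD KC libraries held 5.32, 5.37 and 5.55 CPM and HFD KC libraries 2.43, 3.07, 10.1, 9.92 and 9.44 CPM. Cx3cr1pos HFD libraries held 15.1, 12.8, 26.2 and 17.7 CPM and ATM HFD libraries 20.9, 21.2, 21.9, 25.6 and 35.8 CPM. Within HFD KC, hf1 and hf2 lay below all STD KC libraries and the other 3 above them. The 7 dendritic cell markers, none at 0 in any group, summed to 18.2, 41.6, 130.1, 94.2 and 70.9 CPM in these libraries, in the same rank order as Sema4a, and to 29.9 to 34.7 CPM in STD KC, 19.7 to 30.4 in ATM HFD and 58.2 to 134 in Cx3cr1pos HFD. The 12 sinusoidal endothelial markers had this rank order in HFD KC too, at 1790.0, 1916, 6621, 6373 and 3018 CPM. So did the 6 plasmacytoid dendritic cell markers, at 13.0, 17.7, 51.2, 25.5 and 20.4 CPM. In ATM HFD these lists summed to 72.8 to 130.0 and 7.29 to 12.3 CPM. The part of dendritic, plasmacytoid dendritic and endothelial cells in the Sema4a levels was not tested. Both diet groups lay below both other groups without overlap, and Cx3cr1pos HFD hf3 lay inside the range of ATM HFD.

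Against HFD KC, Sema4a was 2.57-fold higher in Cx3cr1pos HFD (1.36 ± 0.36, adjusted p = 0.017) and 3.58-fold higher in ATM HFD (1.84 ± 0.35, adjusted p = 0.000287). The first of these calls ended without Cx3cr1pos HFD hf3 (log2 fold change 1.12, adjusted p = 0.0779) and with only those 2 groups fitted (adjusted p = 0.0678). Neither the diet comparison (0.37 ± 0.40, adjusted p = 0.709) nor the one between ATM HFD and Cx3cr1pos HFD (0.48 ± 0.36, adjusted p = 0.303) passed.

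Sema4b and Sema4c ran the other way, with their lowest levels in adipose tissue. Sema4b (ENSMUSG00000030539), a class 4 membrane semaphorin, stood at 16.5, 14.97 and 14.3 CPM in STD KC and at 21.1, 25.97, 16.9, 10.2 and 23.4 CPM in HFD KC. It stood at 12.3, 19.8, 12.5 and 14.96 CPM in Cx3cr1pos HFD and at 2.19, 1.05, 2.26, 1.99 and 1.35 CPM in ATM HFD. The 3 liver groups overlapped, and every ATM library lay below every liver library. ATM HFD was lower than HFD KC (-3.46 ± 0.26, adjusted p = 1.35e-08) and than Cx3cr1pos HFD (-3.07 ± 0.27, adjusted p = 1.32e-07). The comparisons within the liver did not pass, at 0.36 ± 0.27 on the log2 scale for the diet (adjusted p = 0.562) and -0.39 ± 0.25 for Cx3cr1pos HFD against HFD KC (adjusted p = 0.336).

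Sema4c (ENSMUSG00000026121), a ligand of plexin-B2, was graded over the groups. STD KC libraries held 17.9, 20.6 and 16.6 CPM and HFD KC libraries 13.96, 12.5, 17.4, 12.99 and 12.1 CPM, and these ranges overlapped. Cx3cr1pos HFD libraries held 7.42, 8.43, 8.30 and 6.07 CPM and ATM HFD libraries 1.47, 2.40, 1.63, 2.10 and 3.07 CPM, each below all libraries of the group before. Cx3cr1pos HFD was lower than HFD KC (-0.87 ± 0.19, adjusted p = 0.00533), and ATM HFD was lower than HFD KC (-2.69 ± 0.19, adjusted p = 5.28e-09) and than Cx3cr1pos HFD (-1.82 ± 0.19, adjusted p = 1.28e-06). In the diet comparison the log2 fold change was -0.41 ± 0.20 (adjusted p = 0.299). Dnase1l3, the most abundant of the liver sinusoidal endothelial markers in the liver groups, had mean levels (± SD) of 4162 ± 731 CPM in STD KC and 1916 ± 1189 CPM in HFD KC, then 1018 ± 348 CPM in Cx3cr1pos HFD and 31.7 ± 12.2 CPM in ATM HFD. Within HFD KC the endothelial sum ranged from 1790.0 CPM in hf1 to 6621 CPM in hf3, and Sema4c from 12.1 to 17.4 CPM. Both were highest in hf3. In hfd1, with an endothelial sum of 6373 CPM, Sema4c stood at 12.99 CPM, below the 13.96 CPM of hf1. In STD KC both were highest in std2 and lowest in std3. The part of endothelial RNA in the Sema4c levels was not tested.

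**Figure D2:**
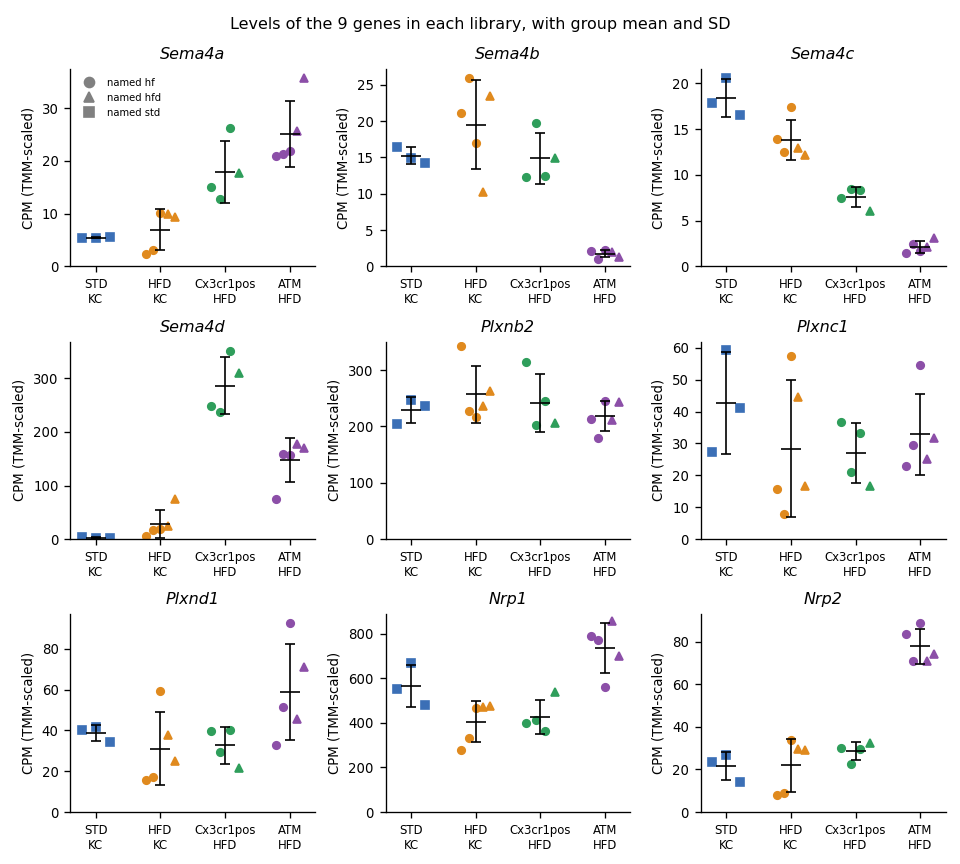
Levels of the 9 genes (CPM, linear axes from 0) in each of the 17 libraries by group, with shapes for the start of the library name and a black mark and bar for the group mean and SD (n = 3, 5, 4 and 5). Sema4d is highest in Cx3cr1pos HFD (286 ± 53.5 CPM), Nrp1 and Nrp2 in ATM HFD (736 ± 112 and 77.8 ± 8.09 CPM), and Plxnb2 lies between 179 and 342 CPM in all libraries.

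Of the plexins, Plxnb2 (ENSMUSG00000036606), the receptor of Sema4c and a lower-affinity receptor of Sema4d, had the highest mean level per kilobase of exon in each group. Its level was 204, 248 and 237 CPM in STD KC and 342, 227, 216, 236 and 262 CPM in HFD KC. In Cx3cr1pos HFD it was 314, 202, 245 and 206 CPM and in ATM HFD 213, 179, 245, 211 and 244 CPM. All neighbouring groups overlapped, and none of the 4 comparisons passed: the log2 fold changes were 0.16 ± 0.17 for HFD KC against STD KC, -0.09 ± 0.15 for Cx3cr1pos HFD against HFD KC, -0.23 ± 0.14 for ATM HFD against HFD KC and -0.15 ± 0.15 for ATM HFD against Cx3cr1pos HFD, with adjusted p from 0.196 to 0.769.

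Plxnc1 (ENSMUSG00000074785), the receptor of Sema7a, ranged widely within groups. STD KC libraries held 27.4, 59.3 and 41.1 CPM and HFD KC libraries 15.6, 7.75, 57.5, 44.5 and 16.7 CPM. Cx3cr1pos HFD libraries held 36.6, 21.2, 33.4 and 16.8 CPM and ATM HFD libraries 23.1, 29.6, 54.6, 25.3 and 31.6 CPM. All groups overlapped and no comparison passed (adjusted p from 0.607 to 0.94). In HFD KC, hf3 and hfd1 held more than hf1, hf2 and hfd2, and in ATM HFD hf3 stood above the others.

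Plxnd1 (ENSMUSG00000030123), the receptor of Sema3e that is known from endothelial cells, held 40.2, 41.9 and 34.2 CPM in STD KC and 15.8, 17.3, 59.2, 37.6 and 25.1 CPM in HFD KC. It held 39.8, 29.3, 40.5 and 21.6 CPM in Cx3cr1pos HFD and 32.95, 51.3, 92.9, 45.5 and 71.2 CPM in ATM HFD. Its mean was highest in ATM HFD, yet ATM HFD hf1 lay below all 3 STD KC libraries. ATM HFD exceeded HFD KC (0.92 ± 0.34, adjusted p = 0.0305), a call that ended with only those groups fitted (adjusted p = 0.0617), with only libraries named hf (0.134) and without any 1 of 5 libraries (HFD KC hf1, hf2 or hfd2, or ATM HFD hf3 or hfd2), down to 0.70 on the log2 scale (adjusted p = 0.0973) without ATM HFD hf3. Against Cx3cr1pos HFD the difference did not pass (0.84 ± 0.36, adjusted p = 0.0723), but it passed in DESeq2 (adjusted p = 0.0317), with only those groups fitted (0.0312) and without ATM HFD hf1 (0.0325).

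Within HFD KC, Plxnc1 and Plxnd1 ran with endothelial RNA. Plxnb2 did not, and was highest in hf1 (342 CPM) and lowest in hf3 (216 CPM). The endothelial sum was 1790.0, 1916, 6621, 6373 and 3018 CPM in HFD KC hf1, hf2, hf3, hfd1 and hfd2, and Kdr, a VEGF receptor of endothelial cells, was 44.3, 31.2, 215, 175 and 76.01 CPM. Plxnc1, Plxnd1, Nrp2 and Sema4a were likewise lowest in hf1 and hf2 and highest in hf3. Nrp1 was also lowest in hf1 and hf2, at 280.0 and 332 CPM against 466 to 476 in the other HFD KC libraries. In ATM HFD this sum, of genes of liver sinusoids, was 72.8, 128, 91.8, 129.7 and 130.0 CPM, with Kdr at 0.719 to 2.96 CPM. The 11 vascular endothelial markers, of which Ccl21a was at 0 in every group, summed to 29.9 to 58.7 CPM there and to 615 to 1391 in HFD KC. Against HFD KC, 1 of them (Vwf) was called higher in ATM HFD and 8 lower, beside 23.8% and 25.2% of all genes. Plxnd1, Nrp1, Nrp2 and Sema4a had their highest group means in ATM HFD. None of the 12 sinusoidal endothelial markers was at 0 in any group. The dendritic and plasmacytoid dendritic cell sums given above ranked the HFD KC libraries as the endothelial sum did. The part of endothelial, dendritic and plasmacytoid dendritic cells in the levels of these genes in liver cells was not tested.

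**Figure D3:**
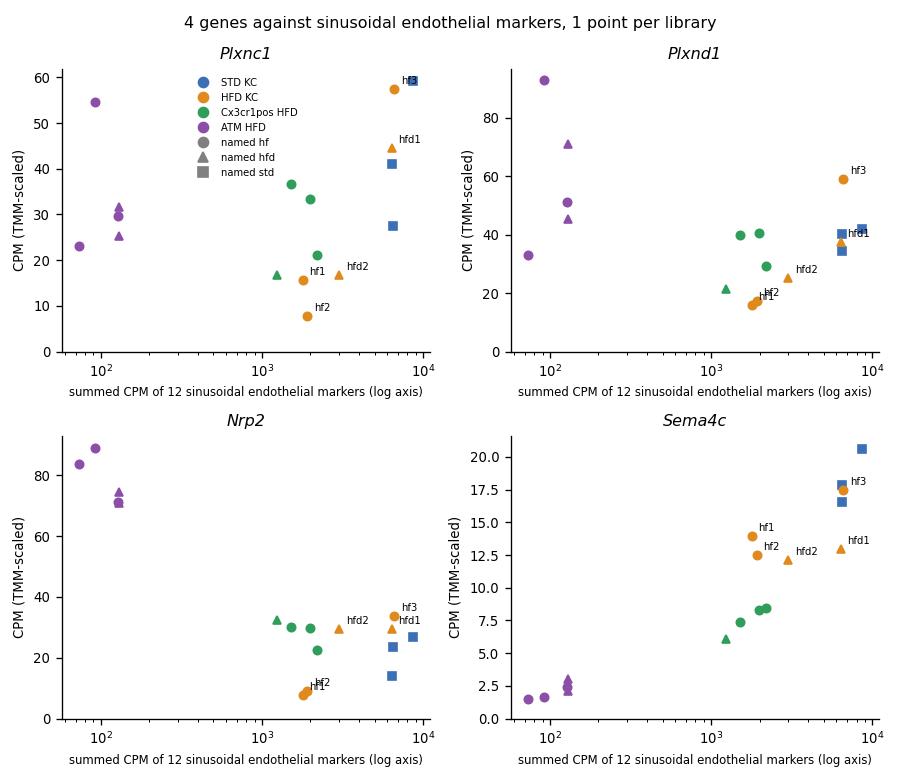
CPM of Plxnc1, Plxnd1, Nrp2 and Sema4c (linear axes from 0) against the summed CPM of 12 liver sinusoidal endothelial markers (log axis), with 1 point per library, colours for groups, shapes for the start of the library name and the HFD KC libraries named. ATM HFD libraries, with endothelial sums of 72.8 to 130.0 CPM, hold the highest Nrp2 levels (70.8 to 88.8 CPM) and the lowest Sema4c levels (1.47 to 3.07 CPM).

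Nrp1 (ENSMUSG00000025810), the co-receptor of Sema3a and of VEGF-A, had the highest mean level per kilobase of the 9 genes in each group. Its level was 551, 669 and 482 CPM in STD KC and 280.0, 332, 466, 473 and 476 CPM in HFD KC. In Cx3cr1pos HFD it was 398, 413, 362 and 538 CPM and in ATM HFD 792, 771, 563, 858 and 699 CPM. All HFD KC libraries lay below all STD KC libraries, by a small margin, while Cx3cr1pos HFD hfd2 lay within the STD KC range and ATM HFD overlapped STD KC. ATM HFD was 1.82-fold higher than HFD KC (0.86 ± 0.17, adjusted p = 0.000361) and 1.72-fold higher than Cx3cr1pos HFD (0.78 ± 0.18, adjusted p = 0.00205). The diet difference did not pass (-0.48 ± 0.19, adjusted p = 0.181), and was -0.67 with only the CD68-labelled and -0.26 with only the frac_neg-labelled HFD KC libraries (adjusted p = 0.114 and 0.617). Within HFD KC, Nrp1 was lowest in hf1 and hf2, as was the endothelial sum, whose part in the Nrp1 levels was not tested.

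Nrp2 (ENSMUSG00000025969), the co-receptor of Sema3f and of VEGF-C, held 23.4, 26.9 and 14.1 CPM in STD KC and 7.88, 8.94, 33.8, 29.6 and 29.3 CPM in HFD KC. It held 30.03, 22.6, 29.8 and 32.4 CPM in Cx3cr1pos HFD and 83.8, 71.2, 88.8, 70.8 and 74.4 CPM in ATM HFD. Every ATM library exceeded every liver library, and the liver groups overlapped one another. ATM HFD was 3.55-fold higher than HFD KC (1.83 ± 0.34, adjusted p = 0.000236) and 2.71-fold higher than Cx3cr1pos HFD (1.44 ± 0.36, adjusted p = 0.00409). The comparisons within the liver gave log2 fold changes of 0.03 ± 0.38 for the diet and 0.39 ± 0.35 for Cx3cr1pos HFD against HFD KC (adjusted p = 0.986 and 0.511). The 12 stellate cell, fibroblast and stromal markers, none of them at 0 in any group, summed to 129.9, 227, 159.6, 212 and 335 CPM in ATM HFD hf1, hf2, hf3, hfd1 and hfd2 against 43.9 to 78.2 in HFD KC. Of these markers, 7 (Col1a1, Col1a2, Col3a1, Dcn, Lum, Pdgfra and Dpt, genes of fibroblasts) were called higher in ATM HFD than in HFD KC and 4 lower (Des, Lrat, Reln and Colec11, known from liver stellate cells), so the list did not move one way. ATM HFD hfd2, which had the highest stromal sum, was not the highest ATM library in Nrp1 or Nrp2. Of the family genes called higher in ATM HFD than in HFD KC, it was the highest in Sema4a and Plxnb1 alone. Sema4a stood there at 35.8 CPM against 20.9 to 25.6 in the other ATM libraries, and Plxnb1 at 7.9 CPM against 3.25 to 4.44. The part of stromal cells in the levels of these genes was not tested.

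The labels do not say what the starts hf and hfd of the library names stand for, and a batch is possible, so the called differences were fitted within each. No direction turned. For ATM HFD against HFD KC the log2 fold changes with hf and with hfd libraries alone were 2.04 and 1.68 for Sema4a, -3.53 and -3.33 for Sema4b, -2.99 and -2.26 for Sema4c, and 3.22 and 1.82 for Sema4d. They were 0.95 and 0.91 for Plxnd1, 0.99 and 0.73 for Nrp1 and 2.27 and 1.32 for Nrp2. For Cx3cr1pos HFD against HFD KC they were 1.77 and 0.87 for Sema4a, -0.88 and -1.05 for Sema4c and 4.29 and 2.65 for Sema4d. For ATM HFD against Cx3cr1pos HFD they were -3.01 and -3.16 for Sema4b, -2.13 and -1.22 for Sema4c, 0.86 and 0.54 for Nrp1 and 1.57 and 1.17 for Nrp2. Cx3cr1pos HFD has 1 library named hfd, which was assumed to vary like the other groups, and with the hfd libraries alone Sema4a, Sema4c and Sema4d against HFD KC and both neuropilins against ATM HFD did not pass.

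Counted over the comparisons, 1 of the 9 genes was called higher (Sema4d) and 0 lower in HFD KC against STD KC, beside 3.40% of all 15285 genes tested (2.27% higher and 1.13% lower). At an unadjusted p under 0.05, 2 of the 9 passed, and DESeq2 called 1. In Cx3cr1pos HFD against HFD KC 2 were higher and 1 lower, beside 13.3% of all genes (5.85% higher and 7.48% lower). In ATM HFD against HFD KC 5 were higher and 2 lower, beside 49.0% (23.8% higher and 25.2% lower). In ATM HFD against Cx3cr1pos HFD 2 were higher and 2 lower, beside 39.7% (18.9% higher and 20.8% lower). Higher calls made up 47.6% of all calls in that comparison, and 57.6% with library totals in place of TMM. The median log2 fold change of the 9 in these comparisons was 0.03, 0.08, 0.86 and 0.28, and that of all genes tested 0.02, 0.00, 0.00 and -0.03. Because the 9 were chosen with such values known, their shares say nothing on the family. HFD KC enters 3 of the 4 comparisons, and ATM HFD and Cx3cr1pos HFD enter 2 each, so the comparisons are not independent.

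**Figure D4:**
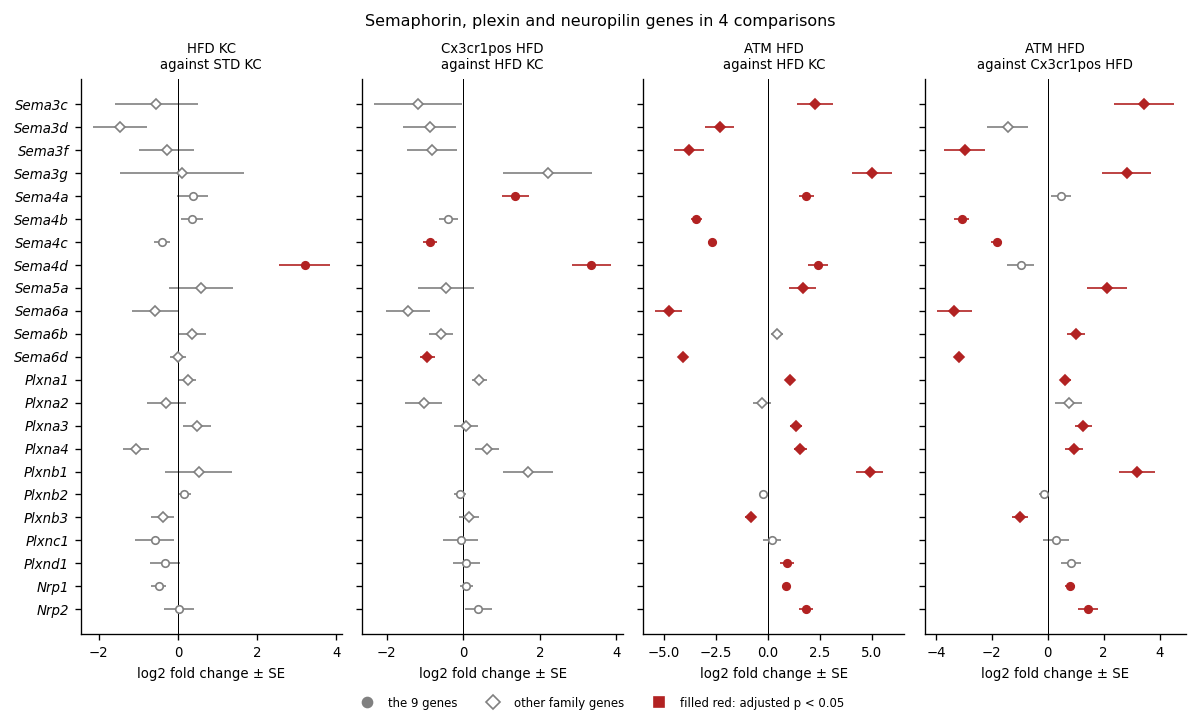
Log2 fold change ± SE of the 23 tested semaphorin, plexin and neuropilin genes in the 4 comparisons, with circles for the 9 genes, diamonds for the others and filled red symbols for an adjusted p under 0.05. The diet comparison has 1 red symbol, Sema4d at 3.19, and ATM HFD against HFD KC has 19, among them Sema6a at -4.79 and Plxnb1 at 4.88. The Sema3g values against HFD KC rest on 2 counts in that group. Among the 19 are Sema3c, Sema3d, Sema3f, Sema3g and Sema5a, which passed the filter on low counts through 1 tissue alone, so their symbols are not results.

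Of the other 22 family genes, 14 passed the filter on low counts. Sema3a, Sema3b, Sema3e, Sema4f, Sema4g, Sema5b, Sema6c and Sema7a did not, with at most 29 counts in any library. Among them are the known ligands of Plxnc1, Sema7a with at most 7 counts, and of Plxnd1, Sema3e. Sema3e had 0 counts in all 12 liver libraries, where 3 counts correspond to 0.0768 to 0.115 CPM, and 0 to 11 counts in the ATM HFD libraries. Of the 14 tested, 0 were called in HFD KC against STD KC (2 at an unadjusted p under 0.05, and 1 by DESeq2, Plxna4 at -1.06 on the log2 scale). Cx3cr1pos HFD against HFD KC had 0 higher and 1 lower, where 13.3% of all genes tested were called. ATM HFD against HFD KC had 7 higher and 5 lower beside 49.0% of all genes, and ATM HFD against Cx3cr1pos HFD 8 higher and 4 lower beside 39.7%. These counts include 5 genes that passed the filter through one tissue alone, so they support no statement on the family.

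Sema6d (ENSMUSG00000027200), a membrane ligand of plexin-A1, had the highest mean level per kilobase of the semaphorins in both Kupffer cell groups. It held 164, 199 and 231 CPM in STD KC and 229, 211, 195, 162 and 185 CPM in HFD KC, which overlapped. It held 105, 111, 91.4 and 101 CPM in Cx3cr1pos HFD and 7.16, 9.49, 14.5, 9.56 and 15.8 CPM in ATM HFD, each below the group before without overlap. Cx3cr1pos HFD was lower than HFD KC (-0.94 ± 0.19, adjusted p = 0.00269), and ATM HFD was lower still (-4.12 ± 0.20, adjusted p = 5.89e-11 against HFD KC). Sema6a, a ligand of plexin-A2 and plexin-A4, went from 21.02 to 39.6 CPM in STD KC and 5.17 to 42.8 in HFD KC to 5.37 to 9.61 in Cx3cr1pos HFD and 0.229 to 1.60 in ATM HFD, with the HFD KC libraries hf1 and hf2 at 5.69 and 5.17 CPM as for the endothelial markers. ATM HFD against HFD KC passed (-4.79 ± 0.64, adjusted p = 9.93e-06) and Cx3cr1pos HFD against HFD KC did not (-1.44 ± 0.58, adjusted p = 0.112), although it did without HFD KC hf1 or hf2 (adjusted p = 0.0458 and 0.0453).

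The secreted class 3 ligands were scarce. Sema3f, a ligand of Nrp2, stood at 1.39 to 4.55 CPM in STD KC, 0.282 to 4.58 in HFD KC, 0.0327 to 0.376 in ATM HFD and 0.523 to 2.18 in Cx3cr1pos HFD. Sema3d stood at 1.30 to 2.42 CPM in STD KC, 0.0941 to 1.37 in HFD KC, 0 to 0.282 in ATM HFD and 0.230 to 0.488 in Cx3cr1pos HFD. Sema3c, which binds both neuropilins, was at or below 0.254 CPM in all liver libraries and at 0.201 to 0.788 CPM in ATM HFD. Sema3g, a ligand of Nrp2 known from endothelium, had 2 counts in HFD KC hfd2 and 0 in the other HFD KC libraries, and 0.294 to 0.912 CPM in ATM HFD. Sema5a held 0.0881 to 0.159 CPM in STD KC, 0.0298 to 0.537 in HFD KC, 0.451 to 1.08 in ATM HFD and 0 to 0.306 in Cx3cr1pos HFD. All 3 passed the filter on low counts through ATM HFD alone, with 0, 0 and 2 liver libraries at or above its 0.304 CPM for Sema3c, Sema3g and Sema5a, so that a call higher in ATM HFD was fixed by the filter and is not given as a result. Sema3d and Sema3f in turn passed through the liver libraries alone, so that their lower calls in ATM HFD are not given as results either. Sema6b, with at most 4.90 CPM in ATM HFD, was called higher against Cx3cr1pos HFD (1.02 ± 0.33, adjusted p = 0.0189) and not against HFD KC (0.44 ± 0.30, adjusted p = 0.241).

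Among the other plexins, Plxnb1 (ENSMUSG00000053646), the high-affinity receptor of Sema4d, was near 0 in the liver. It held 0.127, 0.127 and 0.0587 CPM in STD KC and 0, 0.345, 0.0512, 0.0596 and 0.310 CPM in HFD KC. It held 0.765, 0.297, 0.715 and 0.209 CPM in Cx3cr1pos HFD and 3.30, 3.25, 4.44, 3.83 and 7.89 CPM in ATM HFD, above all liver libraries. ATM HFD was higher than HFD KC (4.88 ± 0.64, adjusted p = 8.38e-06) and than Cx3cr1pos HFD (3.19 ± 0.63, adjusted p = 0.00071). All 5 ATM HFD libraries reached the filter's 0.304 CPM (before TMM scaling), but only 1 HFD KC, 2 Cx3cr1pos HFD and 0 STD KC libraries did. The size of these differences therefore rests on few liver counts. Plxna1, a receptor of Sema6d, rose from 25.2 ± 3.66 CPM in HFD KC to 52.2 ± 18.5 in ATM HFD (1.05 ± 0.19, adjusted p = 0.000212). Plxna3 rose from 1.34 ± 0.645 to 3.37 ± 0.469 CPM (1.33 ± 0.29, adjusted p = 0.00122) and Plxna4 from 5.26 ± 2.22 to 15.5 ± 6.36 CPM (1.56 ± 0.29, adjusted p = 0.000282). Plxna1 and Plxna3 were also higher in ATM HFD than in Cx3cr1pos HFD (0.63 ± 0.20, adjusted p = 0.0193, and 1.27 ± 0.32, adjusted p = 0.00417).

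Plxna4, a receptor of class 3 and class 6 semaphorins, stood at 8.65, 12.1 and 12.4 CPM in STD KC and 3.84, 5.30, 9.08, 3.78 and 4.31 CPM in HFD KC, where hf3 alone reached the STD KC range. The diet comparison did not pass (-1.06 ± 0.32, adjusted p = 0.083) and did pass without HFD KC hf3 (-1.36, adjusted p = 0.0208). Plxnb3 was lower in ATM HFD (7.54 ± 2.45 CPM) than in HFD KC (13.5 ± 5.26 CPM; -0.84 ± 0.26, adjusted p = 0.0116) and than in Cx3cr1pos HFD (-0.99 ± 0.27, adjusted p = 0.00752). Plxna2 did not pass in any comparison, with 2.24, 3.04, 18.2, 15.3 and 7.80 CPM over the HFD KC libraries, again lowest in hf1 and hf2. It did pass in ATM HFD against Cx3cr1pos HFD with only those groups fitted (adjusted p = 0.0276) and in Cx3cr1pos HFD against HFD KC without HFD KC hf1 (0.0411). In the latter comparison Plxna4 passed without HFD KC hf3 (0.0445) and Plxnb1 without HFD KC hf2 (0.0483). The call of Plxna4 in ATM HFD against Cx3cr1pos HFD (0.94 ± 0.31, adjusted p = 0.022) ended without Cx3cr1pos HFD hfd2 (adjusted p = 0.0536) or ATM HFD hf3 (0.0654).

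**Figure D5:**
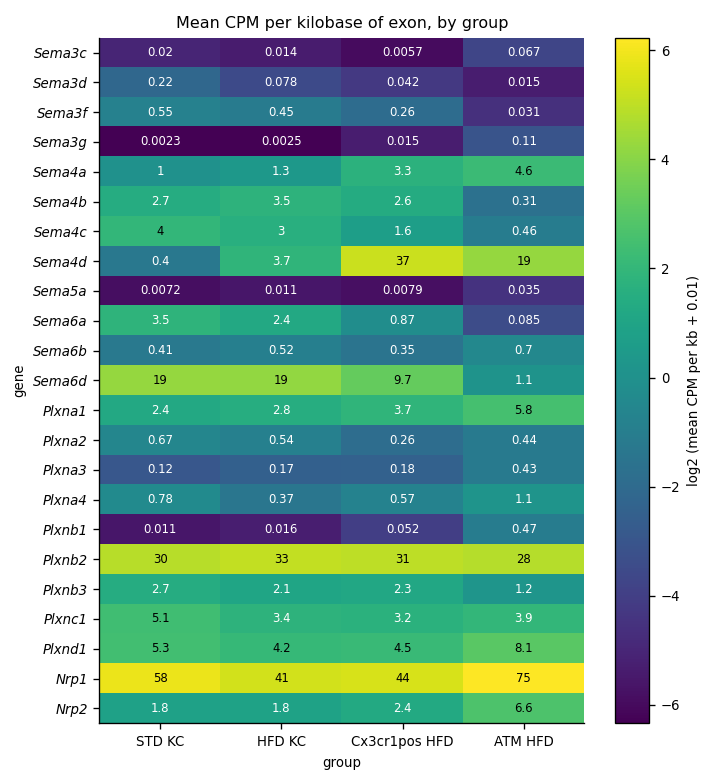
Mean CPM per kilobase of exon of the 23 tested family genes (rows) in the 4 groups (columns), with the value printed in each cell and the colour on a log2 scale after adding 0.01. Nrp1 has the highest value in each group, from 41.4 in HFD KC to 75.3 in ATM HFD, and Sema4d goes from 0.401 in STD KC to 37.3 in Cx3cr1pos HFD.

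Levels of different genes were compared per kilobase of exon, with lengths from GENCODE M21 (GRCm38), since the annotation behind the counts was not given in the sources used here. On that scale Nrp1 led in every group, with mean levels of 57.9 CPM per kb in STD KC, 41.4 in HFD KC, 75.3 in ATM HFD and 43.7 in Cx3cr1pos HFD. Plxnb2 held 28.3 to 33.3 CPM per kb. Among the semaphorins Sema6d led in STD KC (18.7) and HFD KC (18.6), where Sema4d held 0.401 and 3.67. Sema4d led in Cx3cr1pos HFD (37.3, Sema6d 9.67) and in ATM HFD (19.2, Sema6d 1.07). Nrp2 held 1.81 to 6.57 CPM per kb, below Nrp1 in every group.

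Genes with the most similar pattern were sought for each of the 9 by the correlation of log2 CPM over the 17 libraries among 6491 protein-coding genes. The values describe libraries that share group, tissue and depth, and carry no p. Sema4d ran closest to Itgax (r = 0.982), an integrin gene that is also among the monocyte-derived cell markers, to Pparg (0.977), a lipid-sensing nuclear receptor, and to Slamf7 (0.972), a receptor of immune cells. Sema4a ran closest to Sik1 (0.961), Acss1 (0.955) and Cd93 (0.953). Sema4b ran closest to Myo9a (0.980), B430306N03Rik (0.978) and Tgm2 (0.975), and Sema4c to Tspan9 (0.988), Adcy4 (0.986) and Vamp5 (0.985). Nrp1 ran closest to H2afv (0.946), Lhfpl2 (0.938) and Tacc1 (0.928), and Nrp2 to Cenpa (0.959), Prkd3 (0.946) and Nostrin (0.945). For the plexins the closest were weaker: Emilin2 (0.867), Dpp9 (0.817) and Bnip2 (0.804) for Plxnb2, Sptan1 (0.876), Elk3 (0.852) and Prrc2b (0.849) for Plxnc1, and Tns1 (0.935), Prrc2b (0.879) and Add3 (0.875) for Plxnd1.

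A list of 58 genes of the same pathway (other receptors and partners, VEGF genes, proteases, GTPases with their regulators, and cytoskeletal effectors) had 54 tested members. In HFD KC against STD KC 3 of the 54 rose and 0 fell, beside 3.40% of all genes called. They were Mras, a Ras-type GTPase on which plexins act, from 0.921 ± 0.535 to 5.00 ± 3.03 CPM (2.43 ± 0.43, adjusted p = 0.00508), Met, the hepatocyte growth factor receptor and a partner of B plexins, from 0.231 ± 0.350 to 2.58 ± 0.923 CPM (3.47 ± 0.74, adjusted p = 0.0143), and Trem2, a lipid receptor and partner of plexin-A1, from 69.01 ± 7.72 to 197 ± 109.9 CPM (1.51 ± 0.32, adjusted p = 0.0153). Each of these calls ended with only those groups fitted (adjusted p = 0.0634, 0.0837 and 0.0839) and without STD KC std2 (0.0557, 0.0606 and 0.0876). Without std3 Met and Trem2 were not called (0.0982 and 0.106), nor was Trem2 without std1 (0.0582). In Cx3cr1pos HFD against HFD KC 8 rose and 9 fell, beside 13.3% of all genes called, the latter led by the kinase Fyn (-1.13 ± 0.16, adjusted p = 0.000172), the plexin-B-binding exchange factor Arhgef12 (-0.96 ± 0.14, adjusted p = 0.000186) and the plexin-binding GTPase Rnd1 (-1.70 ± 0.25, adjusted p = 0.000237).

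In ATM HFD against HFD KC 14 of the 54 rose and 22 fell, beside 23.8% of all genes higher and 25.2% lower. Adam10, a protease that sheds membrane proteins, went down from 355 ± 43.4 to 154 ± 9.47 CPM (-1.21 ± 0.09, adjusted p = 8.37e-09), and Flt4, the VEGF-C receptor that pairs with Nrp2, from 107 ± 82.3 to 0.495 ± 0.149 CPM (-7.76 ± 0.61, adjusted p = 1.81e-08). Flt4 is also among the sinusoidal endothelial markers. Dpysl2, a tubulin-binding effector of Sema3a signalling, rose from 389.6 ± 46.9 to 1403 ± 329 CPM (1.85 ± 0.14, adjusted p = 1.84e-08). In ATM HFD against Cx3cr1pos HFD 13 rose and 14 fell, beside 18.9% and 20.8% of all genes, among the latter Adam10 (-1.51 ± 0.09, adjusted p = 2.07e-09), Flt4 (-6.16 ± 0.59, adjusted p = 3.87e-07) and Mmp14, a membrane metalloprotease that can release Sema4d, from 72.7 ± 39.6 to 4.11 ± 0.635 CPM (-4.14 ± 0.35, adjusted p = 1.04e-07). By role, the 4 proteases had 2 higher (Adam10 and Mmp14) in Cx3cr1pos HFD against HFD KC, beside 5.85% of all genes, and 3 lower (Adam10, Adam17 and Mmp14) in ATM HFD against HFD KC, beside 25.2%. Adam10 in the former was small (0.31 ± 0.09, adjusted p = 0.0354) and was not called with the replicate block, which pairs these libraries by name (adjusted p = 0.0685). The 8 VEGF genes had 2 higher (Vegfa and Vegfb) and 3 lower (Flt1, Kdr and Flt4) in ATM HFD against HFD KC, beside 23.8% of all genes higher and 25.2% lower, the lower ones being receptors of endothelial cells. The median log2 fold change of the tested list was 0.04, -0.22, -0.165 and 0.01 in the 4 comparisons, beside the medians of all genes given above.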

How the data were processed

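Counts of RNA-seq reads per gene were deposited as 1 table with 17 library columns, and all 17 were assigned to groups by their labels. Per the labels' protocols the libraries were made with a SMARTer kit and read single-end, and per the submitters' processing notes the authors used bcl2fastq, STAR 2.0.4b and Subread featureCounts 1.4.5. The genome build, annotation and strand setting are not given in the sources used here, so reads of overlapping or antisense genes cannot be told apart. After 276 repeated rows with identical counts were removed, 40548 genes remained, and 15285 passed filterByExpr. edgeR 4.0.16 in R 4.3.3 (TMM factors, glmQLFit and glmQLFTest over all 17 libraries, 1 coefficient per group, common biological coefficient of variation 0.297) gave two-sided p-values with Benjamini-Hochberg adjustment over all genes tested. The fit was tested on simulated data. Alternatives used DESeq2 1.42.0, other scaling, no filter, other sets of libraries, a prefix term and a block by library name. Floors of 3 counts cover counting error only, while the SE of a fitted difference also holds the spread between libraries.

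The members and lists were chosen with earlier results of these data known. The genes named were all 9 members, every other family gene tested, at most 3 called pathway genes per comparison by adjusted p, the 3 genes most like each member among protein-coding genes that averaged 20 CPM or more in a group, and genes that check the sorts. Kdr, Vegfa, Vegfb, Adam17, Flt1, Ms4a1 and the stromal markers were named after their values were seen. Of the 13 sinusoidal endothelial markers, 12 matched a row by symbol.

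Library names are shared between the high-fat groups. HFD KC and Cx3cr1pos HFD libraries of the same name deviated together, with correlations of 0.213 to 0.377 over 4 pairs across genes, against -0.292 to 0.188 for other names, so the names pair these libraries. The blocked fit is given where it changes a call.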

Additional observations from a re-analysis of the deposited data

Results flagged for a closer look

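Of 69 combinations of a tested family gene and a group of 4 or 5 libraries, 9 had 1 library far from the others by Dixon's criterion, where chance flags about 1 in 20. Sema4d stood apart in HFD KC hfd2, at 74.3 CPM against 5.58 to 24.4 in the other HFD KC libraries, and in ATM HFD hf1, at 74.3 CPM against 157 to 177 in the other ATM libraries. HFD KC hfd2 was also the library with the least Timd4 of its group. Plxnc1 was high in ATM HFD hf3, at 54.6 CPM against 23.1 to 31.6, as was Plxna3, at 4.19 CPM against 3.00 to 3.29. That library was also the highest of ATM HFD in Plxna1, Plxna4, Plxnd1 and Nrp2 and the lowest in Nrp1. It had the highest TMM factor of all libraries (1.143) and the lowest Adgre1 (2110 CPM) and Fcgr1 (132 CPM) of ATM HFD. Plxnb1 was high in ATM HFD hfd2, at 7.90 CPM against 3.25 to 4.44. Plxna4 was high in HFD KC hf3, at 9.08 CPM against 3.78 to 5.30. Sema5a was high in HFD KC hf3, at 0.537 CPM against 0.0298 to 0.169, and in ATM HFD hf2, at 1.08 CPM against 0.451 to 0.627. Sema3g had 0.0563 CPM in HFD KC hfd2, from 2 counts, and 0 in the other 4 libraries.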

How the results depend on the processing

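No called difference of a family gene turned direction under any alternative run. Of the 9 members' values, 132 of 135 kept their side of the threshold in HFD KC against STD KC, 157 of 162 in Cx3cr1pos HFD against HFD KC, 164 of 171 in ATM HFD against HFD KC and 156 of 162 in ATM HFD against Cx3cr1pos HFD, and the calls lost are named in the report. Counts below give all genes, members and other family genes called. In HFD KC against STD KC, DESeq2 called 1156 genes and 1 other family gene (519 and 0 in edgeR), the fit of only those groups called 231 genes and 0 members, and leaving out 1 library gave 125 to 545, 0 to 1 and 0 to 1. In Cx3cr1pos HFD against HFD KC, DESeq2 called 2 other family genes, the libraries named hfd gave 51, 0 and 0, and leaving out 1 library gave 1327 to 2114, 2 to 3 and 1 to 3. In ATM HFD against HFD KC, the libraries named hfd gave 4582 genes and 6 other family genes, and in ATM HFD against Cx3cr1pos HFD 1454, 2 and 1, where fewer libraries enter. The cause of the other changes was not tested.

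With the replicate block (the library name in a fit of the 3 high-fat groups), 1935 genes, 3 members and 1 other family gene were called in Cx3cr1pos HFD against HFD KC, 7611, 7 and 10 in ATM HFD against HFD KC, and 5996, 4 and 11 in ATM HFD against Cx3cr1pos HFD. Same-named pairs of ATM HFD correlated at 0.0162 to 0.226 with HFD KC, against -0.211 to 0.161 for other names. With Cx3cr1pos HFD they correlated at 0.0898 to 0.33, against -0.325 to 0.239. The ranges overlapped, so the correlations do not decide whether the names pair the ATM HFD libraries. In the paired comparison, Cx3cr1pos HFD against HFD KC, the block changed no call of a family gene. In ATM HFD against HFD KC it ended that of Sema3d, which is counted but not given as a result. Sema3c did not pass the filter in the fit of these groups alone, so its calls are missing from both ATM counts. No paired analysis was possible for the diet because the STD KC libraries share no name with HFD KC. Depth limits Sema3c, Sema3g, Sema5a and Plxnb1 in liver, where few counts were read.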
